A study of Caenorhabditis elegans with 24 samples.

Results

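The transcriptome of young adult Caenorhabditis elegans carrying bcl-11(bon144) was compared with that of wt animals. The comparison takes in 8 of the 24 libraries of the series, 4 of each genotype, and 13497 of 19320 genes, namely those whose mean rlog over the 8 libraries was 3 or more. Rlog, the regularized logarithm, is a log2 scale of normalised read counts that pulls the differences of weakly expressed genes towards 0. The wt animals were of the N2 strain, and the mutants carried bon144, an edited allele in which an in-frame deletion and insertion alter a conserved domain of BCL-11 while homozygous animals stay viable. Both genotypes had an intact daf-2 gene, were grown at 20 °C on a lawn of OP50 Escherichia coli and were collected as whole animals on the first day of adulthood. The allele is a partial loss of function, it is represented by 1 strain, and each library pools the tissues of many animals, so that fewer cells of a type and less RNA per cell cannot be told apart. The question was which genes differ in every mutant library and which follow the spread of developmental stage among the libraries.

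BCL-11 is the nematode member of the BCL11 family of zinc finger transcription factors, whose mammalian members bind DNA, act largely as repressors in blood and brain development, and associate with SWI/SNF chromatin remodelling complexes. In C. elegans hermaphrodites the germline makes sperm before the adult moult and then changes to oocytes. Transcripts of the msp genes, which encode the major sperm proteins, are made while sperm form and are lost in older adults. Cuticle collagen genes are switched on in waves around each moult, and the vit genes, which encode the yolk proteins (vitellogenins), are switched on in the intestine of adults. The mean rlog of the msp genes was therefore used as a measure of how far the animals of a library had come through this transition.

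The 4 bcl-11(bon144) libraries differed in the msp mean, the stage measure used here, much more than the 4 wt libraries. The mean of the 28 kept msp genes (of 30) was 4.60, 6.23, 7.45 and 6.82 in wt replicates 1 to 4 and 4.56, 8.10, 10.95 and 4.60 in bcl-11(bon144) replicates 1 to 4. Mutant replicates 2 and 3 lay above every wt library, mutant replicates 1 and 4 lay with the lowest wt library, and the genotypes overlapped. Between same-numbered libraries, which the labels place in the same batch, the mutant was 0.04 lower in replicate 1, 1.87 and 3.50 higher in replicates 2 and 3, and lower again in replicate 4, with a difference of -2.23. The genotype means were 6.27 ± 1.22 in wt and 7.05 ± 3.09 in bcl-11(bon144) (SD, n = 4 each). The mean of 39 other sperm genes followed the msp mean across the 8 libraries, from 4.80 in mutant replicate 1 to 7.14 in mutant replicate 3. Within the mutant the mean of the 6 yolk protein genes did not follow the msp mean, at 18.24, 18.30, 18.13 and 18.12 in replicates 1 to 4. A spread of stage is thus read from sperm transcripts alone.

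**Figure D1:**
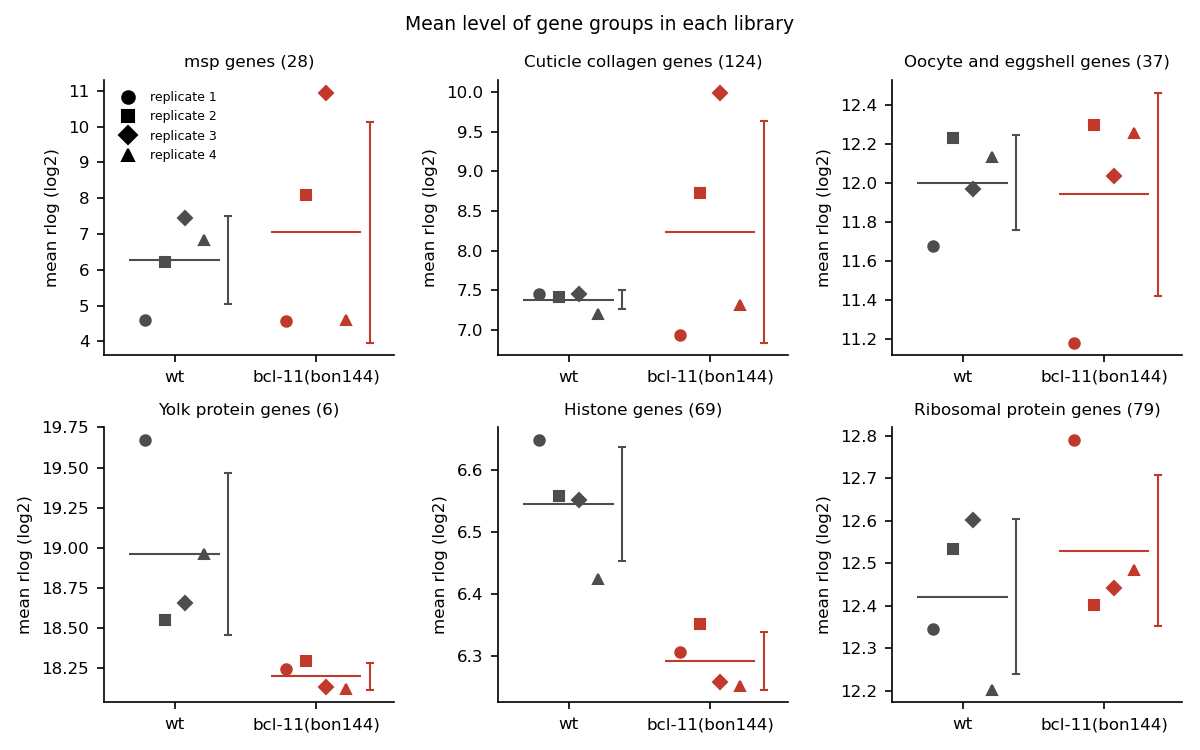
Mean rlog (log2 scale) of 6 gene groups in each library, with wt in grey and bcl-11(bon144) in red, 1 symbol per replicate number, a line at the genotype mean and a bar of 1 SD beside it. The msp and collagen means of mutant replicates 2 and 3 lie above all other libraries, whereas the yolk and histone means of all 4 mutant libraries lie below all 4 wt libraries.

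The stage measure did not capture the whole spread. Along the first principal component, which held 52.5% of the variance, wt replicates 1 to 4 lay at -21.96, -7.19, 0.57 and 0.28 and the mutant replicates at -40.4, 25.9, 57.7 and -14.9. Mutant replicates 1 and 4 were thus apart although their msp means were alike. Mutant replicate 1 also had the lowest mean of the 37 oocyte and eggshell genes, 11.2 against 11.7 to 12.3 in the other 7 libraries. It differed from wt replicate 1 by transcript length. The median difference was 0.19 in the 2700 genes with the shortest transcripts and -0.32 in the 2701 with the longest. In the pairs of replicates 2, 3 and 4 the shortest were at -0.17, -0.11 and -0.02 and the longest at 0.08, 0.14 and -0.08. The pairs of replicates 2 and 3 thus also differed by length, in the opposite direction. The median SD of a gene was 0.18 in wt and 0.25 in bcl-11(bon144), and 69.3% of the genes had the larger SD in the mutant. Tissue markers were present as for whole animals, with 11 of 12 intestinal, 8 of 8 body wall muscle, 13 of 13 neuronal and 9 of 10 epidermal markers kept, and 2 of 12 male markers. Sequencing depth is unknown, since the deposited values are already normalised.

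The transcript level of the targeted gene did not differ beyond the spread of the libraries. Bcl-11 (chromosome V, 6356025 to 6362997, plus strand, assembly WBcel235) had rlog values of 6.62, 6.13, 6.34 and 6.37 in wt and 6.43, 6.92, 7.08 and 6.17 in bcl-11(bon144). The genotypes overlapped, and the difference of 0.28 ± 0.22 (SE) did not pass the test (adjusted p = 0.943). The higher values belonged to mutant replicates 2 and 3, and with replicates 1 and 4 alone the difference was -0.07. Since the allele changes the protein in frame, the transcript level does not check the genotype.

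A single gene passed the test between the genotypes, dyf-3, and it fell. DYF-3 is a component of the intraflagellar transport machinery that builds the sensory cilia of neurons. Its rlog (chromosome IV, 3396581 to 3399231, minus strand) was 8.66, 8.90, 8.16 and 8.50 in wt and 6.16, 6.43, 6.71 and 6.15 in bcl-11(bon144). The lowest wt library was above the highest mutant library, and the means were 8.56 ± 0.31 and 6.36 ± 0.27 (SD, n = 4). The log2 fold change was -2.19 ± 0.19 (SE, limma, adjusted p = 0.00686). Dyf-3 was the only call among 13497 genes (0.00741%), a call being an adjusted p under 0.05 with a change of more than 1.5-fold. An unadjusted p under 0.05 was found for 781 genes (5.79%), 276 of which (2.04%) had higher and 505 (3.74%) lower values in the mutant. With the replicate number, which marks the batch, as a block, the difference of dyf-3 was the same but its adjusted p was 0.166, and limma called 0 genes, with 988 at an unadjusted p under 0.05. Without wt replicate 1, wt replicate 4 or mutant replicate 4, its adjusted p was 0.0662, 0.0611 and 0.0511.

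Once the msp mean was part of the fit, 8 genes were called for genotype (0.0594% of 13469 genes tested, msp genes being left out), of which 7 fell (0.0520%) and 1 rose (0.00742%) in the mutant. The count was 44 without wt replicate 1, 2 without wt replicate 2, 4 without wt replicate 4, and 37 and 5 without mutant replicates 1 and 2. All 8 belonged to the genes whose 4 mutant libraries did not overlap the 4 wt libraries. Dyf-3 had a difference of -2.24 ± 0.19 in this fit (SE, adjusted p = 0.000404). F59D8.3, annotated as a noncoding RNA (chromosome X, 3563816 to 3563991), had the largest difference. Its values were 10.66, 9.05, 8.37 and 9.67 in wt and 6.25, 5.88, 6.68 and 5.78 in the mutant. With the msp mean it fell by 3.27 (SE 0.39, adjusted p = 0.00626). It overlaps the 5′ end of vit-4 on the other strand, and because the libraries carry no strand the reads of the pair cannot be told apart.

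Of the other lower genes, F56D6.9 (chromosome IV, 3892327 to 3893326) was at 7.64, 7.93, 8.11 and 7.54 in wt and at 6.44, 5.92, 5.43 and 6.52 in bcl-11(bon144), and fell by 1.63 (SE 0.19, adjusted p = 0.00626). C25G4.7 (chromosome IV, 12456913 to 12458561) was at 6.75, 6.54, 6.38 and 6.66 in wt and at 5.28, 4.70, 5.59 and 4.65 in the mutant, and fell by 1.57 (SE 0.21, adjusted p = 0.0122). F44E7.5 (chromosome V, 5778817 to 5780922) stood at 11.99, 11.97, 11.85 and 12.06 in wt, the tightest of these wt groups, and at 10.17, 10.90, 10.72 and 10.72 in the mutant. These 3 genes have no given name, and they differ in level from moderate to high.

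F44E7.5 fell by 1.37 with the msp mean (SE 0.17, adjusted p = 0.00626), and its reads at the 5′ end cannot be told from those of F44E7.13, a noncoding RNA on the other strand that overlaps it there. Y55F3AM.11 (chromosome IV, 1038667 to 1044387) was at 9.04, 8.89, 8.56 and 9.09 in wt and at 7.98, 7.16, 7.41 and 7.49 in bcl-11(bon144), and fell by 1.33 (SE 0.18, adjusted p = 0.0122). Ego-2 encodes a BRO1 domain protein that promotes Notch signalling in the germline. Its values were 8.28, 8.47, 8.20 and 8.42 in wt and 7.06, 7.68, 7.87 and 7.20 in the mutant. It fell by 0.97 (SE 0.15, adjusted p = 0.0498), and its lowest values were those of mutant replicates 1 and 4, which had the lowest msp means.

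The gene that rose was ctsa-4.2, named for cathepsin A, a serine carboxypeptidase of lysosomes. Its values (chromosome III, 6612528 to 6615149) were 10.38, 10.14, 10.29 and 10.28 in wt and 11.39, 11.00, 11.00 and 11.09 in bcl-11(bon144). The difference was 0.88 ± 0.14 (SE, adjusted p = 0.0498). Every mutant library was above every wt library by more than the range of either group. With the replicate block, ego-2 and ctsa-4.2 lost their calls (adjusted p = 0.0808 and 0.0840), and the other 6 of the 8 kept theirs. Leaving out each library in turn, dyf-3 and F59D8.3 were called in all 8 fits with the msp mean, whereas ctsa-4.2 lost its call in 6 and ego-2 in 5.

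**Figure D2:**
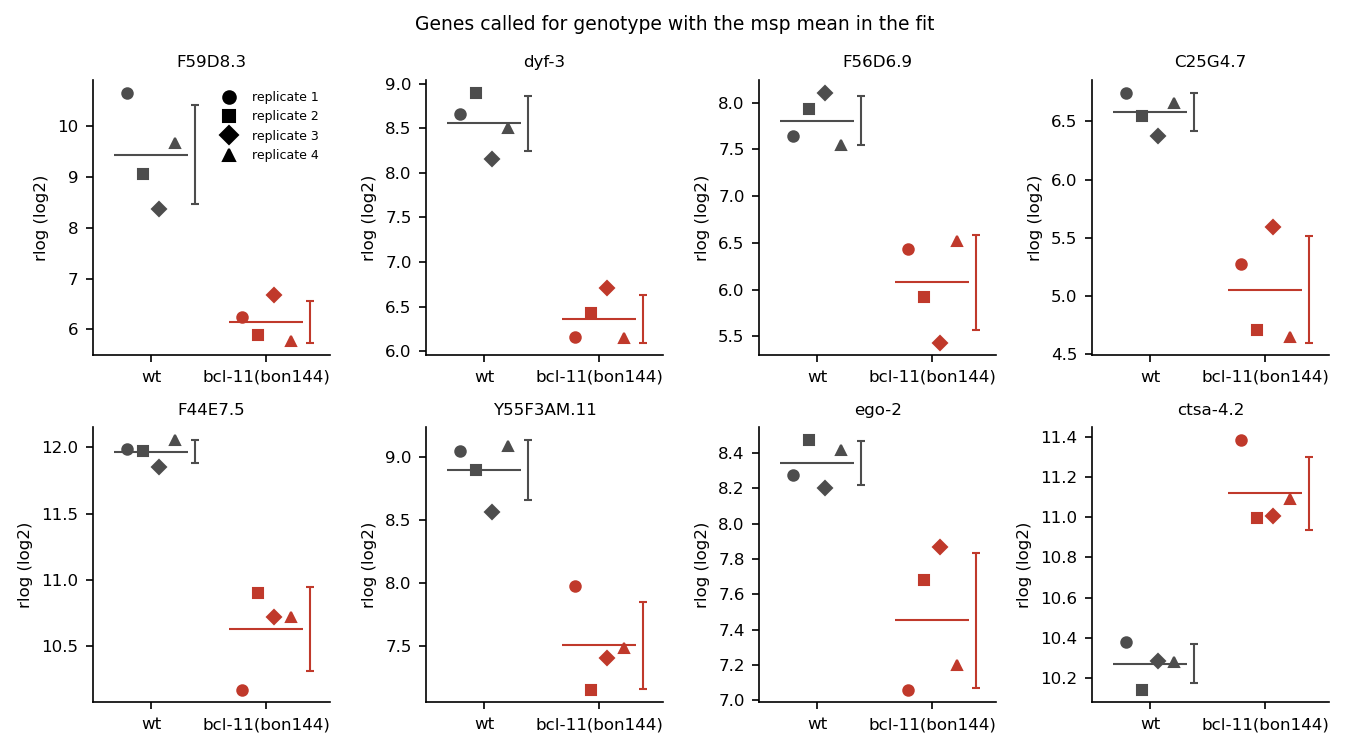
Rlog (log2 scale) in each library of the 8 genes called for genotype with the msp mean in the fit, with wt in grey and bcl-11(bon144) in red, 1 symbol per replicate number, a line at the genotype mean and a bar of 1 SD beside it. In each panel the 4 mutant libraries lie wholly below the 4 wt libraries, except for ctsa-4.2, where they lie wholly above, and dyf-3 goes from 8.56 to 6.36.

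Genes whose mutant libraries all lay on 1 side of all wt libraries, with means more than 1.5-fold apart, were mostly lower in the mutant. In 111 genes (0.822% of 13497) the 4 mutant libraries did not overlap the 4 wt libraries and the means differed by more than 1.5-fold. Of these, 100 had lower values (0.741%) and 11 higher values (0.0815%) in the mutant. With no minimum difference, 557 genes did not overlap, 229 of them higher and 328 lower, and without mutant replicate 1 the minimum left 83 higher and 184 lower genes. This criterion is a description with no test. Of the 100 lower genes, 95 were protein-coding, and their median difference was -0.77. Of these 100, 1 gene, sysm-1, also had a called slope on the msp mean, against 5.08% of all genes tested. The criterion favours genes that vary little within a genotype, so this count cannot show whether the shifts are free of stage. The criterion fixes the direction in each mutant library, and only the sizes are given here. The median difference of mutant replicates 1 and 4 from wt replicate 1, the wt library with a like msp mean, was -1.11. From the wt mean it was -0.86 for mutant replicates 1 and 4 and -0.72 for mutant replicates 2 and 3. Mutant replicates 1 and 4 and wt replicate 1 had the lowest msp means but lay apart on the first principal component, at -40.4, -14.9 and -21.96. A like msp mean therefore does not show a like stage. The median transcript length of the 100 genes was 1409 bases, against 1351 over all kept genes, and the upper quartile was 3175 bases, against 2018. Long transcripts were thus more frequent among the 100, and the part of the low values of long transcripts in mutant replicate 1 was not tested.

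The yolk protein genes were among the lower genes. Vit-3 (chromosome X) was at 19.66, 18.55, 18.53 and 19.10 in wt and at 17.93, 18.01, 17.84 and 17.93 in bcl-11(bon144). Vit-5 was at 20.10, 18.98, 19.03 and 19.42 in wt and at 18.67, 18.46, 18.24 and 18.44 in the mutant. The mutant values lay within a narrow band, and the wt values were spread more widely, with wt replicate 1 highest. Of the 6 vit genes, 4 were lower without overlap, against 0.741% of all genes, with differences of -1.03 for vit-3, -0.99 for vit-4, -0.93 for vit-5 and -0.60 for vit-2. None of these passed the test (adjusted p = 0.750, 0.791, 0.816 and 0.927). Vit-2 was at -0.37 without wt replicate 1 and at 0.11 after quantile normalization. Vit-1 and vit-6 overlapped, at -0.40 and -0.62. The mean of the 6 genes was 19.67, 18.55, 18.66 and 18.96 in wt and 18.24, 18.30, 18.13 and 18.12 in the mutant. Yolk genes resemble each other in sequence, so the counting could have split reads among them.

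Some genes of digestion and of defence were also among the lower genes. C-type lectins bind sugars, and many are made on contact with microbes. Of 97 kept C-type lectin genes (of 181), 7 were lower without overlap, against a background of 0.741%, and 0 were higher. Clec-85 was at 12.59, 11.98, 12.22 and 11.88 in wt and at 10.65, 11.21, 10.79 and 11.17 in bcl-11(bon144), a difference of -1.21. Clec-41, clec-145 and clec-5 had differences of -1.12, -1.01 and -1.03. Of these 4, clec-85 had the lowest adjusted p (0.132), and the median over all 97 genes was -0.12, against 0.01 over all kept genes.

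Among 29 kept genes of lysosomal proteases, 4 were lower and 1, ctsa-4.2, was higher without overlap, against 0.741% and 0.0815% of all genes. The 4 encode cysteine proteases of the cathepsin B type. Cpr-5 was at 15.76, 15.34, 14.94 and 15.14 in wt and at 14.12, 14.74, 14.93 and 14.09 in the mutant, so that wt replicate 3 and mutant replicate 3 were almost level. Cpr-9, cpr-1 and cpr-6 had differences of -0.74, -0.71 and -0.67, and cpr-6 is named here after its values were seen. The list had a median of -0.28, 21 of its 29 members were lower, and the proteases moved in both directions. Lys-10, a lysozyme gene, differed by -0.84 and cnc-3, which encodes an antimicrobial peptide of the caenacin family, by -0.62, and they were the 2 of 60 lysozyme, saposin and antimicrobial peptide genes without overlap, against 0.822% of all genes.

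Of 27 kept genes that DAF-16, the FOXO factor restrained by insulin signalling, is known to induce, 21 were lower and 6 higher, with a median of -0.25. Over all genes, 6497 of 13497 were lower. Of the 27, 11 had an unadjusted p under 0.05, all lower, where 3.74% of all genes did so. Lower without overlap were 3 of the 27, against 0.741% of all genes. Lea-1 encodes a late embryogenesis abundant protein that protects against desiccation. Its values were 13.48, 13.92, 13.91 and 13.53 in wt and 11.62, 12.66, 12.27 and 12.82 in bcl-11(bon144), a difference of -1.37 (adjusted p = 0.215).

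Ftn-1, which encodes the iron store ferritin, was at 9.18, 9.20, 8.75 and 8.58 in wt and at 8.32, 7.64, 7.37 and 8.07 in the mutant. Icl-1, the enzyme of the glyoxylate cycle, was at 13.62, 13.13, 13.58 and 13.39 in wt and at 12.26, 12.71, 12.54 and 12.62 in the mutant. Both genes had their 4 mutant libraries below all wt libraries, with differences of -1.08 and -0.90, and neither passed the test (adjusted p = 0.357 and 0.189). Ftn-1 and cpr-1 were also the 2 of 11 intestinal markers that did not overlap (0.822% of all genes), and the median of the 11 was -0.09. The mean of those markers was 11.02 to 11.64 in wt and 10.86 to 11.34 in the mutant. The part that intestinal mass has in the lower values of yolk, lectin and protease genes was not tested.

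Histone genes were lower by a small and even amount. The mean of the 69 kept histone genes was 6.65, 6.56, 6.55 and 6.42 in wt and 6.31, 6.35, 6.26 and 6.25 in bcl-11(bon144), with no overlap. Of the 69, 60 were lower and 28 had an unadjusted p under 0.05, all of them lower, against 3.74% of all genes. The median was -0.28, and 0 of them differed by more than 1.5-fold without overlap. Many histone genes are near-identical copies, and several have values identical to those of another, so the 69 are not separate measurements. His-58, with a difference of -0.58, was the largest and shared its values between 2 gene identifiers (WBGene00001932 is the first). Most histone mRNAs lack a poly(A) tail, and the part of RNA selection in these values was not tested.

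The remaining lower genes had varied roles. Rrn-3.1, a ribosomal RNA gene on chromosome I, was at 19.39, 19.79, 19.85 and 19.25 in wt and at 17.94, 18.38, 18.39 and 17.56 in bcl-11(bon144), a difference of -1.50 (adjusted p = 0.487). The libraries were primed with oligo-dT for polyadenylated mRNA, so these values do not measure the amount of ribosomal RNA. The part of RNA selection in the difference was not tested. Of 79 cytosolic ribosomal protein genes, 67 were higher, with a median of 0.11. Their means overlapped, at 12.20 to 12.60 in wt and 12.40 to 12.79 in the mutant, the highest being mutant replicate 1. Osm-11, which is on the cilium list although it encodes a secreted protein of Notch signalling, differed by -0.64. Dyf-3 and osm-11 were the 2 without overlap among the 38 kept members of that list, against 0.822% of all genes. The list had a median of 0.02. Without mutant replicate 1, osm-11 was at -0.32. Col-158, at -1.03, was the only 1 of 124 collagen genes without overlap, a share near the 0.822% of all genes. Nas-39, an astacin protease, differed by -0.73 and ugt-43, a glucuronosyltransferase, by -0.76.

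Regulatory genes without overlap, named here after their values were seen, included tra-1, the GLI-type factor that ends the sex determination pathway, at -0.83, and egl-30, the Gq alpha subunit, at -0.61. Ntl-3, a subunit of the CCR4-NOT deadenylase, differed by -0.83, epc-1, the homologue of Enhancer of Polycomb, by -0.80, and pod-2, acetyl-CoA carboxylase, by -0.66. Lec-8, a galectin, differed by -0.84. The 4 values of epc-1 were 10.21, 10.12, 10.08 and 10.34 in wt and 8.72, 9.90, 9.77 and 9.14 in the mutant. Here, as in ntl-3 and egl-30, mutant replicates 2 and 3 were close to wt and replicates 1 and 4 carried most of the difference. Without mutant replicate 1, ntl-3 was at -0.45. Tra-1 was at 6.94, 7.32, 6.79 and 7.28 in wt and at 6.10, 6.32, 6.18 and 6.43 in the mutant, an even shift in all 4.

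Of the 11 genes that were higher in every mutant library by more than 1.5-fold in the mean, ctsa-4.2 alone was called with the msp mean. Tni-1, a troponin I of muscle, was at 6.46, 6.29, 6.69 and 6.21 in wt and at 7.20, 7.33, 7.71 and 6.78 in bcl-11(bon144). The other members were F39F10.2 (0.88), nspe-7 (0.84), Y49G5A.1 (0.73), T05C3.6 (0.65), T03D3.5 (0.62), C16C2.4 (0.60) and the pseudogene WBGene00014746 (0.62), and K01D12.9 (0.83) and R12E2.14 (1.16), whose slopes on the msp mean were also called. The values of R12E2.14 were 4.28, 4.75, 5.97 and 3.79 in the mutant and 3.62, 3.60, 3.66 and 3.27 in wt, and without mutant replicate 3 its difference was 0.73. That of K01D12.9 was 0.54 without the same library.

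More genes were called for the slope on the msp mean than for genotype, although a slope call needed no minimum change and a genotype call did. The slope on the msp mean, in log2 units of a gene per log2 unit of the msp mean at fixed genotype, was called at an adjusted p under 0.05 in 684 genes (5.08% of 13469), with 619 positive (4.60%) and 65 negative (0.483%). Without mutant replicate 3, the library with the highest msp mean, 187 genes were called. Without mutant replicate 4 the number was 1093, and with the replicate block it was 271, of which 266 were positive and 5 negative. After quantile normalization 538 of 712 called slopes were positive. The positive slopes included 28 of 39 sperm genes other than msp and 81 of 124 cuticle collagen genes. Among the wt libraries alone, 27 of those 28 sperm genes had a positive slope, but only 33 of those 81 collagen genes. Among the mutant libraries all 28 and all 81 did.

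**Figure D3:**
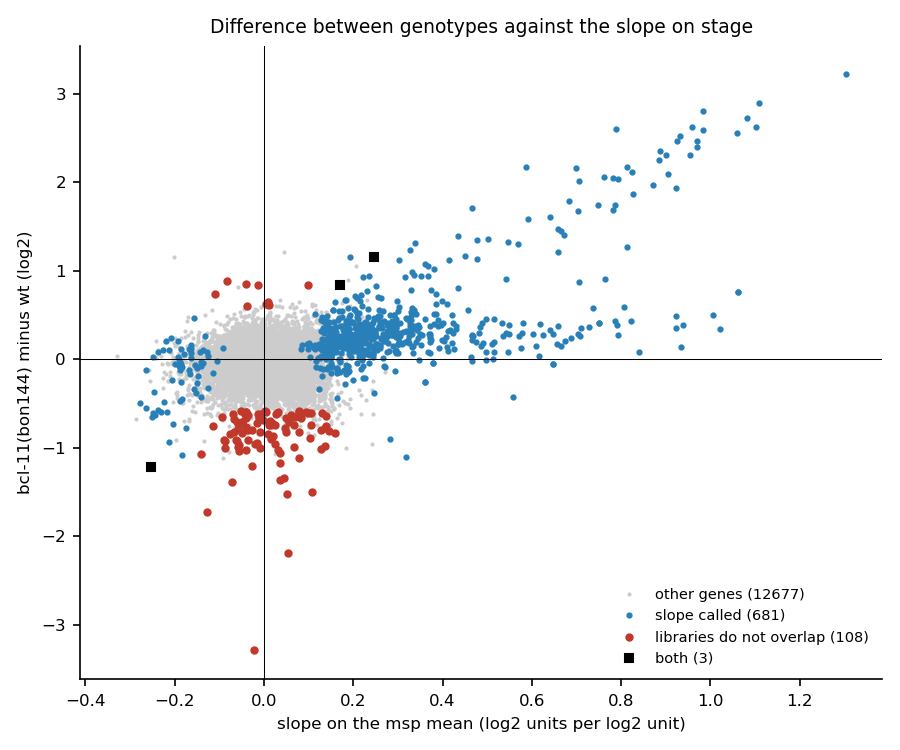
Log2 difference between bcl-11(bon144) and wt (vertical axis) against the slope on the msp mean (horizontal axis, log2 units per log2 unit), 1 point per gene for the 13469 genes tested. Genes with a called slope (blue) reach upward to the right, genes whose libraries do not overlap and differ by more than 1.5-fold (red) lie mostly below 0 near a slope of 0, and 3 genes are in both sets (black).

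Sperm genes rose with the msp mean in both genotypes. Nspd-5, a member of a sperm peptide family, was at 4.38, 5.25, 5.77 and 5.53 in wt and at 4.03, 6.52, 9.19 and 4.68 in bcl-11(bon144), with a slope of 0.71 ± 0.05 (SE). Ssp-16, which encodes a small sperm protein related to the msp family, had a slope of 0.76. A pair of unnamed genes on chromosome IV, WBGene00021997 and WBGene00022002 (both Y59E9AR.7), had slopes of 1.06 but identical values, which makes them 1 measurement. Over all 39 sperm genes the median slope was 0.33 within wt and 0.30 within bcl-11(bon144).

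The mean of the collagen genes was highest in mutant replicates 2 and 3, and their slopes in wt lay around 0. Col-145 was at 2.94, 2.89, 2.93 and 3.27 in wt and at 2.88, 6.00, 13.08 and 2.95 in bcl-11(bon144). Col-13 was at 3.92, 5.11, 4.18 and 5.11 in wt and at 4.42, 8.45, 12.53 and 4.48 in the mutant. Mutant replicates 1 and 4 were level with wt, and replicates 2 and 3 were far above it, replicate 3 most of all. Col-133, col-91 and col-175 had the same pattern, with 11.99, 11.74 and 11.60 in mutant replicate 3, and the slopes of these 5 genes lay between 1.06 and 1.30. Without mutant replicate 3 the slopes of col-145, col-91 and col-175 were 0.56, 0.44 and 0.28, and the last 2 were no longer called (adjusted p = 0.122 and 0.385). With the replicate block col-91 and col-175 also lost their calls (adjusted p = 0.0614 and 0.0662).

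The mean of the 124 collagen genes was 7.46, 7.41, 7.45 and 7.20 in wt and 6.93, 8.72, 10.00 and 7.31 in bcl-11(bon144). Over all 124 collagen genes the median slope was -0.02 within wt and 0.34 within bcl-11(bon144). In a fit with a separate slope for each genotype, added after these values were seen, 13 of 13469 genes (0.0965%) had a larger slope in the mutant at an adjusted p under 0.05 and 0 a smaller one, and 540 genes (4.01%) had an unadjusted p under 0.05 (limma). Of the 13 genes, 11 are on the collagen list. Among them was col-63, named after its values were seen, with 5.83, 4.76, 4.18 and 4.70 in wt and 4.17, 6.81, 9.85 and 4.25 in the mutant. Its slope was -0.56 within wt and 0.87 within bcl-11(bon144), a difference of 1.42 ± 0.12 (SE, adjusted p = 0.000769). The msp means of mutant replicates 2 and 3 lie outside the wt range, so a genotype-specific slope and a slope that steepens at higher msp means cannot be told apart. Without wt replicate 1, limma called 0 genes for a difference of slopes, with 287 at an unadjusted p under 0.05.

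**Figure D4:**
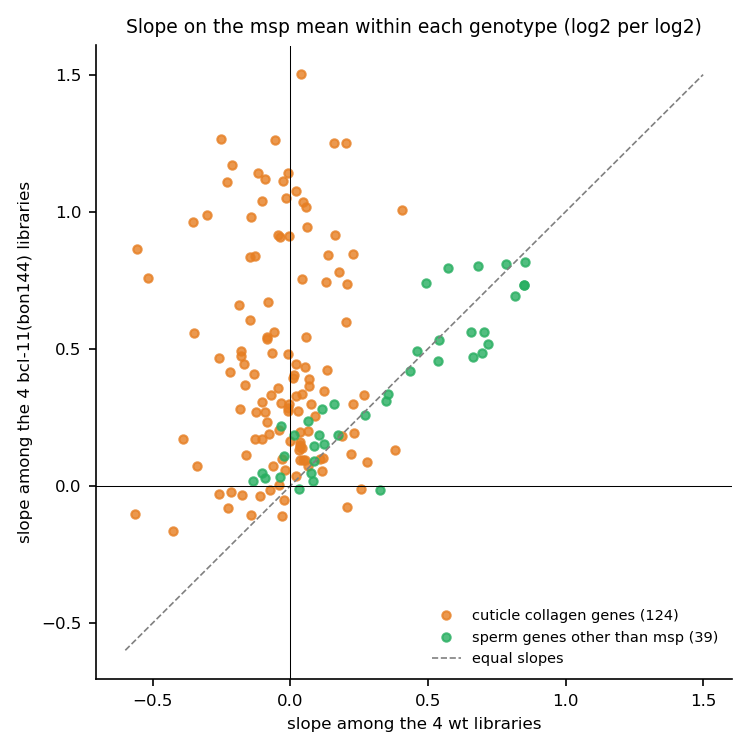
Slope on the msp mean among the 4 wt libraries (horizontal axis) and among the 4 bcl-11(bon144) libraries (vertical axis), in log2 units per log2 unit, 1 point per gene, for 39 sperm genes other than msp (green) and 124 cuticle collagen genes (orange). Sperm genes lie along the line of equal slopes, and collagen genes spread upward at wt slopes around 0.

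Among the tissue markers, positive slopes were called in 4 of 9 pharyngeal, 2 of 9 epidermal and 1 of 8 body wall muscle markers, against 4.60% of all genes. They were also called in 1 of 4 glial and 1 of 10 sheath and spermatheca markers. Neuronal (13), intestinal (11), early embryo (12) and male markers (2) gave 0. The 2 epidermal markers with a called slope were the collagens col-19 and dpy-13, with slopes of 0.38 and 0.48. Both lost their calls with the replicate block (adjusted p = 0.576 and 0.555) and without mutant replicate 3 (0.162 and 0.439). C-type lectin genes gave 7 positive slopes of 97. Of 37 kept sarcomere genes, 8 had positive slopes, and 30 of the 37 had higher values in the mutant, as did 7000 of all 13497 genes, with a median of 0.17. Ttn-1, the titin homologue, had the largest difference of these, 1.15, with 9.52, 9.31, 10.19 and 9.18 in wt and 10.36, 10.98, 11.45 and 10.01 in bcl-11(bon144), so that wt replicate 3 was just above mutant replicate 4.

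Negative slopes were called in 65 genes (0.483%), in 5 with the replicate block, and in 18 and 6 without mutant replicates 1 and 3. They included K07C11.7, spex-3 and Y45F10C.2 with slopes of -0.28, -0.25 and -0.25, and skr-10, a Skp1-related ubiquitin ligase subunit, with -0.26. Skr-10 was at 9.81, 9.07, 8.98 and 9.09 in wt and at 10.64, 8.54, 8.29 and 9.01 in bcl-11(bon144). In both genotypes replicate 1 was highest. Leaving out each library in turn, the slope of skr-10 lost its call in 7 of 8 fits, that of spex-3 in 6 and that of anr-1 in 4. With the replicate block, 7 of the 8 named negative slopes lost their calls, with adjusted p from 0.109 for M199.9 to 0.676 for skr-10, and sysm-1 kept its call. Y105C5B.9 and M199.9 both had slopes of -0.25, as did sysm-1, whose values were also lower without overlap at 12.99, 11.94, 11.24 and 13.03 in the mutant against 13.28 to 13.71 in wt. Anr-1, an antisense RNA, had a slope of -0.27, and its reads cannot be told from those of its partner. F-box and MATH domain genes gave 9 of the 65, out of 272 kept, where 0.483% of all genes had a negative slope. Of 12 early embryo markers, 11 were lower in the mutant, with a median of -0.09.

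The division between the 2 kinds of change followed their direction. A difference of more than 1.5-fold was found in 333 genes (2.47%), of which 144 had higher values in the mutant (1.07%) and 189 lower values (1.40%). Of the 144 higher genes, 93 (64.6%) had a called slope, 60 were collagen genes and 11 did not overlap. Of the 189 lower genes, 12 (6.35%) had a called slope and 100 did not overlap. In the 133 higher genes that did overlap, the median difference from the wt mean was 2.57 for mutant replicates 2 and 3 and -0.08 for replicates 1 and 4. In the 89 lower genes that overlapped, the corresponding medians were -0.59 and -0.71, so these were lower in both pairs of libraries. The difference and the slope come from the same libraries. The msp mean was 0.78 higher in the mutant and 619 of 684 called slopes were positive, which alone places genes with a called slope mostly among the higher ones. The division is therefore a description whose direction was partly fixed in advance.

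Most other gene groups lay near the median of all genes. Subunits of the SWI/SNF complex had a median of 0.11 over 14 genes. Swsn-1, a core subunit, was at 9.25, 9.00, 8.49 and 8.74 in wt and at 8.10, 8.48, 8.44 and 8.21 in bcl-11(bon144), with wt replicate 3 and mutant replicate 2 almost level. Let-526, an ARID subunit, differed by -0.40, and by -0.18 without mutant replicate 1. Proteasome genes had a median of 0.08 over 33 genes, with rpt-2 and rpn-12 at 0.34 and 0.25. Of the ribosomal protein genes, rps-7 and rpl-24.1 differed by 0.35 and 0.29. Oocyte and eggshell genes had a median of -0.02, with perm-2 and lin-41 at -0.60 and -0.55, and germline genes one of 0.00. Perm-2 was at -0.28 without wt replicate 3 and lin-41 at -0.085 without mutant replicate 1. None of the members of these 5 lists passed the test.

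Cytochrome P450 genes had a median of -0.03 over 56 genes, glutathione S-transferases of -0.02 over 37, nuclear hormone receptors of -0.02 over 171, neuropeptides of 0.06 over 73 and chaperones of 0.05 over 65. None of their members was called or differed without overlap by more than 1.5-fold. The corresponding median of insulin-like peptides was 0.00 over 21 genes and that of fatty acid desaturases and elongases -0.09 over 14. Over all 13497 genes the median was 0.01.

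The daf-2 background offers a separate set of libraries, normalised in its own table. There daf-2(e1370);bcl-11(bon144) was compared with daf-2(e1370), 4 libraries each, and these share no library with the comparison above. Of the 100 genes that were lower without overlap in the wt background, 94 (94.0%) were also lower with bon144 in the daf-2 background, with a median of -0.26, and 11 did not overlap there. Over all genes lower in bcl-11(bon144), 64.01% were lower in the daf-2 background and 1.82% without overlap. Of the 89 genes lower by more than 1.5-fold in the wt background with overlap, 80 (89.9%) were lower in the daf-2 background. Their median there was -0.25, and 3 did not overlap. The share was thus almost as high without the criterion of no overlap. Genes of 1 function share regulation and are not independent, so these shares have no test. The changes were smaller in size: dyf-3 was at -0.77 without overlap, F59D8.3 at -0.59, rrn-3.1 at -0.67 and clec-85 at -0.48, whereas lea-1, C25G4.7 and F44E7.5 were near 0 (0.00, -0.05 and -0.05). Of the 11 higher genes, 8 were also higher there, against 59.9% of all higher genes. Of the 133 higher genes with overlap, 37 (27.8%) were higher in the daf-2 background, and the msp genes had a median of -0.33 there.

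**Figure D5:**
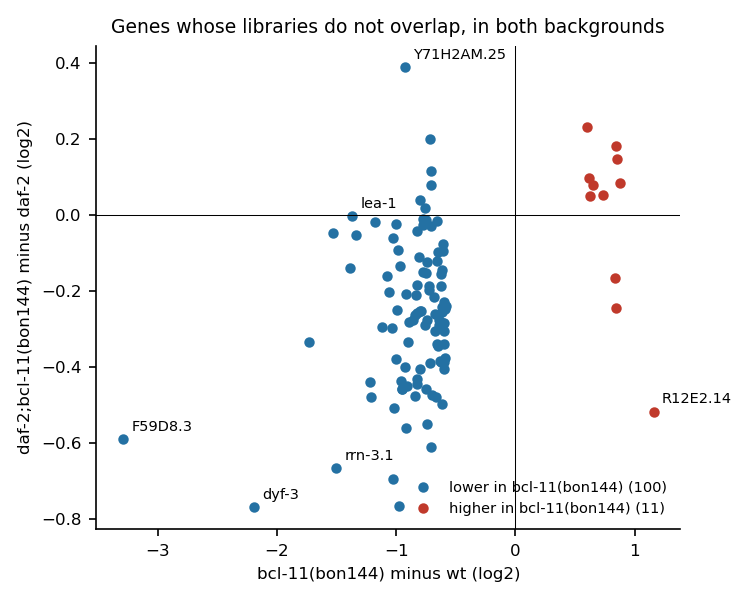
Log2 difference of daf-2;bcl-11(bon144) from daf-2 (vertical axis) against that of bcl-11(bon144) from wt (horizontal axis) for the 111 genes whose libraries do not overlap in the latter, 1 point per gene, lower genes in blue and higher genes in red. Of the 100 blue points, 94 lie below 0 on the vertical axis, which spans a smaller range than the horizontal axis.

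The other allele, bon125, shares the wt libraries, so its values are given beside those of bon144 without a comparison. Dyf-3 differed from wt by -1.34 with bon125 and -2.19 with bon144. For Y55F3AM.11 the values were -1.34 and -1.39, for F25E5.1 -1.12 and -1.17, for pkhm-2 -0.90 and -0.86, and for C25G4.7 -1.09 and -1.53. F44E7.5 was at -0.03 with bon125 and -1.34 with bon144, F56D6.9 at 0.39 and -1.73, rrn-3.1 at -0.01 and -1.50, and lea-1 at -0.13 and -1.37. Dyf-3, Y55F3AM.11, F25E5.1 and pkhm-2 belong to a list of 6 genes that the study chose from these same libraries as shared by both alleles, of which 5 were kept here, so their direction is no separate evidence.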

How the data were processed

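RNA of whole worms was sequenced by the authors from non-stranded, full-length Smart-seq2 libraries, demultiplexed with bcl2fastq 2.20 and assigned to Ensembl 109 transcripts of WBcel235 with Kallisto (version written 048.0 in the submitters' processing notes). The authors deposited log2 values, regularized logs (rlog) of gene counts after normalisation over the 12 libraries of the table. Depth is unknown, and precision is that of the replicates. Names and positions came from Ensembl 115, which matched every identifier. Of the kept genes, 110 have the values of another gene and are uncertain.

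Limma 3.58.1 (R 4.3.3) was fitted to the 8 libraries with 2 genotype means and moderated variances that follow the mean; p-values are two-sided and adjusted by Benjamini-Hochberg over all kept genes. A gene was called at an adjusted p under 0.05 and a change of more than 1.5-fold. Further fits added the msp mean and, later, its interaction with genotype. The steps were tested on simulated data. Groups and replicate numbers came from the labels, where the number is the batch and so pairs libraries; deviations of same-numbered libraries correlated at 0.49, 0.07, 0.27 and 0.04. Nothing states that libraries came from separate cultures, so p-values measure the spread between these libraries only. The genes, lists and comparison were chosen with earlier results of these data known.

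Genes named are bcl-11, the called genes, the 10 higher and 10 lower genes with the largest differences without overlap and without a called slope, the 8 most positive and 8 most negative slopes, and up to 4 members of each list. Alternatives concerned the samples, filter, scaling, variance model, block, stage measure and thresholds. No sequences were used here.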

Additional observations from a re-analysis of the deposited data

Results flagged for a closer look

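Of 160 sets of 4 libraries checked for a value far from the other 3, 8 (5%) stood out, and chance flags about 1 in 20. In wt, col-145 was highest in replicate 4 (3.27, next value 2.94), egl-30 in replicate 1 (10.18, next 10.03), F39F10.2 in replicate 2 (3.82, next 3.60) and skr-10 in replicate 1 (9.81, next 9.09), and R12E2.14 was lowest in replicate 4 (3.27, next 3.60). In bcl-11(bon144) the 3 such values all belonged to replicate 1, where F25E5.1 was lowest (7.84, next 8.45), and F39F10.2 (5.32, next 4.33) and rps-7 (13.30, next 12.96) were highest. Y71H2AM.25 went in opposite directions in the 2 backgrounds, with every bon144 library below every control library in the wt background (-0.93) and above in the daf-2 background (0.39), and the difference between these effects was not tested.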

How the results depend on the processing

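The count of genes called between the genotypes, 1 in the fit reported, was 9 with all 12 libraries of the table, 3 with a minimum mean rlog of 5, 2 after quantile normalization, 5 with robust variances, 18 with library weights (whose fit did not converge fully) and 0 in the test against a change of 1.5-fold. With the replicate block it was 0. The 8 calls with the msp mean became 1 with no filter, 14 (4 higher, 10 lower) after median centring, 13 with robust variances, 362 with library weights and 86 with the first principal component in place of the msp mean, and were 7, all lower, after quantile normalization. The 684 called slopes became 189 with a minimum of 5, 271 with the replicate block (5 negative), 3442 with library weights and 1203 with the principal component. The 111 genes without overlap became 557 (229 higher, 328 lower) with no minimum difference, 21 with a minimum of 1, and 534 (58 higher, 476 lower) with mutant replicates 1 and 4 alone, an alternative chosen after seeing the data that has fewer libraries to overlap. Where not named, the cause was not tested. Leaving out each library in turn gave 0 to 4 calls between the genotypes, 2 to 44 with the msp mean, 187 to 1093 slopes, 120 to 267 genes without overlap and 0 to 97 differences of slopes. Leaving out mutant replicate 1 gave the 4, the 267 (83 higher, 184 lower) and the 97 (44 calls with the msp mean came without wt replicate 1). Of 60 named genotype differences, 58 kept their sign under every alternative; bcl-11 was at -0.071 with mutant replicates 1 and 4 alone and vit-2 at 0.11 after quantile normalization. With those 2 mutant libraries, the slopes of col-91 and dpy-13 were -0.053 and -0.048. The replicate block ended the call of dyf-3, 2 of the 8 calls with the msp mean and 11 of the named slopes, as given with the genes above, and changed no other call of a named gene.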
